A study of Mus musculus with 8 samples.

Results

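The gelsolin-villin family was followed in dorsal root ganglia (DRG) of mouse embryos, with Avil (advillin) at its centre because the Advillin locus carries the Cre recombinase in this study. The 7 members, Avil, Vil1, Gsn, Scin, Capg, Flii and Svil, were chosen by membership of the family and found by symbol among 55414 listed genes, of which 17721 had enough counts to be tested. All 7 members were listed and 5 of them were tested. Vil1 and Scin were too low for the filter on low counts and are described by their counts. DRG were collected at E18.5 (late embryonic stage, shortly before birth), with 4 libraries of the genotype AdvillinCre/+;Rosa26Dach1/+ (AD1 OE) and 4 of the genotype Advillin+/+;Rosa26Dach1/+ (Control). Both groups carried 1 Rosa26 allele from which Dach1 and EGFP are transcribed after Cre has excised a stop cassette, and only AD1 OE carried Cre. The Advillin locus drives Cre in postmitotic somatosensory neurons, so glia and other cells of the ganglion are outside its main domain. Mice with the Rosa26 allele were of mixed C57Bl/6J and CD1 background. The 2 groups therefore differed at the Advillin locus and in Dach1 at the same time, and effects of these differences cannot be told apart here.

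Proteins of this family are built from repeated gelsolin-type domains that bind actin. In the presence of calcium many of them sever actin filaments or cap their fast-growing ends, and several add a C-terminal villin headpiece that binds along the filament and lets the protein bundle filaments. Advillin is known as a marker of peripheral sensory neurons, villin as a component of intestinal microvilli, and gelsolin as a widespread protein with a cytoplasmic and a secreted form.

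The windows before the starts of Avil and of Vil1, its close relative by sequence and domain layout, are shown because these genes lay far apart in their levels in the ganglion. They were taken from a table of RefSeq promoters on GRCm38.p6, in which 6 of the 7 members, all but Svil, were matched. Each holds the 250 bases before a transcript start on the plus strand, 5′ to 3′. Capitals mark ATTA, the core letters of many homeodomain sites, and TATAA, both searched on either strand (TAAT and TTATA on the other).
Avil, chr10:127000459-127000708: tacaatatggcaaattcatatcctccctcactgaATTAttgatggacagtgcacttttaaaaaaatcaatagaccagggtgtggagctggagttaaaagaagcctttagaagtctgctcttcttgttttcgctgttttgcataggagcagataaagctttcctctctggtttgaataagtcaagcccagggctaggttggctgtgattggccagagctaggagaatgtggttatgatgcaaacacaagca
Vil1, chr1:74409134-74409383: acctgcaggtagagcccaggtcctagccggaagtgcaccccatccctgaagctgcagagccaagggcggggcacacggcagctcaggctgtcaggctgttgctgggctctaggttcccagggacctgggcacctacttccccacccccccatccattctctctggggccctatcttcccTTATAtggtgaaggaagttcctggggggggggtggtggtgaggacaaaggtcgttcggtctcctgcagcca

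The Avil window held 1 ATTA and no TATAA, and the Vil1 window held 1 TATAA and no ATTA. Of the 32851 windows in the table, 54.9% held ATTA and 22.8% held TATAA. The windows differed in base composition, with a GC content of 42.0% for Avil and 62.8% for Vil1 against a median of 52.4% over all windows. These matches describe letters only.

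The members are spread over 7 chromosomes, with Avil (ENSMUSG00000025432) on chromosome 10, Vil1 (ENSMUSG00000026175) on chromosome 1, Gsn (ENSMUSG00000026879) on chromosome 2 and Scin (ENSMUSG00000002565) on chromosome 12. Capg (ENSMUSG00000056737) lies on chromosome 6, Flii (ENSMUSG00000002812) on chromosome 11 and Svil (ENSMUSG00000024236) on chromosome 18. Their annotated exons cover between 2529 bases (Capg) and 10701 bases (Svil), and those of Avil cover 3398 bases.

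The libraries held between 22339059 and 44025625 counts. The label check was Dach1, at 95.9 ± 5.28 CPM (counts per 1000000 counts of the scaled library) in AD1 OE, against 32.6 ± 1.64 CPM in Control. Values with ± are means and SD over n = 4 libraries unless a standard error is named. The labelled tissue was checked with 9 sensory neuron genes, among them Isl1, Pou4f1 and Prph, which were all detected and summed to between 10377 and 11188 CPM in AD1 OE and between 10776 and 11346 CPM in Control. Transcripts of Xist and of Y-linked genes showed that 3 of the 4 AD1 OE libraries were male and that 3 of the 4 Control libraries were female, so sex was unbalanced between the groups.

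Avil had the highest level per length of exon of all members in every library, and this level in Control lay above that of 99.6% of tested genes. In AD1 OE it was at 460, 450, 467 and 478 CPM in replicates 1 to 4. In Control it was at 840, 919, 906 and 902 CPM. The groups were far apart, with the highest AD1 OE library well below the lowest Control library. Avil stood at 52.0% of Control with a 95% interval of 48.6% to 55.6%, which includes 50%. Whether the allele with Cre yields Avil transcripts was not tested. Other genes had log2 fold changes of similar size (Kcna4 -0.92, Myt1 -0.95), but these were picked for profiles close to that of Avil. The log2 fold change of Avil was -0.94 ± 0.04 (standard error), with a Benjamini-Hochberg adjusted p of 1.98e-07 in the quasi-likelihood test of edgeR. This test called 1.78% of all tested genes lower in AD1 OE, where a call needs a log2 fold change beyond 0.25 in either direction and an adjusted p below 0.005.

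In bulk tissue, fewer cells of a type and less RNA per cell cannot be told apart. On DRG sections of AD1 OE and control embryos at E18.5, the paper counted neurons stained for Islet1, Prdm12, TrkB and TrkC. It reported that the main neuron subtypes were present in appropriate numbers. The cells in the sequenced ganglia were not counted. The 9 sensory neuron genes had a median log2 fold change of -0.02, against 0.002 for all tested genes, and ran from -0.15 to 0.14. Both edgeR and DESeq2 called 0 of the 9. At an unadjusted p under 0.05 edgeR gave 2, Elavl4 (0.14, groups not overlapping) and Snap25 (-0.15), and DESeq2 gave 3, 1 higher and 2 lower. With edgeR, 18.6% of all tested genes had such a p, and 13.0% had non-overlapping groups. When the libraries were scaled to the sum of these 9 genes instead of to all genes, the log2 fold change of Avil was -0.90. Avil shares 165 bases of exon, 4.86% of its exon length, with Tsfm on the opposite strand, and the strand setting of the counting was not stated. Tsfm, a mitochondrial translation factor, was at 17.3 ± 0.938 CPM in AD1 OE against 18.49 ± 0.433 CPM in Control, and counting both genes together gave a log2 fold change of -0.92.

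**Figure D1:**
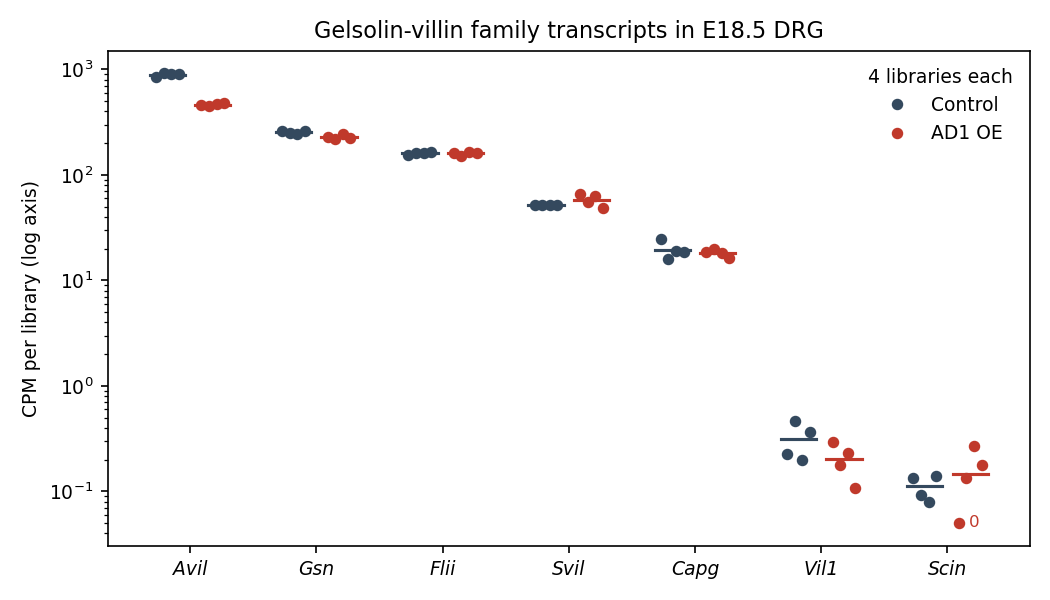
CPM of the 7 members in each library, on a log axis; points are libraries (4 per group), bars are group means, and the single library without a Scin count is drawn at the bottom and marked 0. Avil is the only member whose groups are visibly apart, with AD1 OE between 450 and 478 CPM and Control between 840 and 919 CPM.

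None of the 4 tested paralogues was called higher in AD1 OE, where 0.784% of all tested genes were. Both edgeR and DESeq2 called 0 of them in either direction, and in each of the 2 tools 1 paralogue was higher (Svil) and 1 lower (Gsn) at an unadjusted p under 0.05. With edgeR, 8.28% of all tested genes were higher and 10.3% lower at such a p. At an adjusted p under 0.05 alone, Avil and Gsn were lower, 2 of the 5 tested members, where 4.14% of all tested genes were lower and 6.55% passed in either direction. Among the 5 tested members, Avil included, the median log2 fold change was -0.09.

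Gelsolin (Gsn), the severing and capping protein that gave the family its name, was the paralogue with the highest level. It was at 227, 221, 242 and 223 CPM in AD1 OE. In Control it was at 260.3, 252, 243 and 260.0 CPM. All AD1 OE libraries lay below all Control libraries, but AD1 OE replicate 3 (242.2 CPM) and Control replicate 3 (242.9 CPM) nearly touched. Non-overlapping groups were seen for 2 of the 5 tested members, Avil and Gsn, and for 13.0% of all tested genes, 7.26% with AD1 OE below Control. Gsn stood at 89.9% of Control (95% interval 84.5% to 95.7%), or -0.15 ± 0.04 on the log2 scale. Its edgeR adjusted p of 0.0467 was above the threshold of 0.005, and the difference was under the fold limit. The adjusted p ranged from 0.00693 with DESeq2 to 0.197 with sex as a covariate. Gsn is also made by glia and fibroblasts. The 8 glia genes summed to between 1287 and 1613 CPM in AD1 OE and between 1314 and 1598 CPM in Control, and the 6 fibroblast genes to between 5778 and 6542 CPM and between 4947 and 6065 CPM. These sums overlapped between the groups. The fibroblast genes had a median log2 fold change of 0.17, ran from -0.15 to 0.23, and 0 of 6 were called by edgeR and by DESeq2. In each tool 3 were higher and 1 lower at an unadjusted p under 0.05. Groups did not overlap for 1 of the 6, Pdgfra, which was higher in AD1 OE (0.23, edgeR adjusted p = 0.0232). The glia genes had a median of 0.006, with 0 of 8 called by edgeR. At an unadjusted p under 0.05 edgeR gave 2 of them, both lower, Fabp7 (-0.26, groups not overlapping) and S100b (-0.14). Over all tested genes, 18.6% had such a p with edgeR. The part of glia and fibroblasts in the Gsn value was not tested.

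Flightless (Flii), which joins gelsolin domains to leucine-rich repeats and also acts in the nucleus as a coactivator, was at 163, 151, 164 and 161 CPM in AD1 OE. In Control it was at 154, 160, 160 and 165 CPM, so the groups overlapped throughout. Flii stood at 99.9% of Control with an interval of 94.6% to 105.4% (edgeR adjusted p = 0.989), and its sign changed with the scaling. Flii shares 64 bases of exon with Llgl1 on the opposite strand (log2 fold change -0.02). Lrrfip1 and Lrrfip2, which bind the leucine-rich repeats of Flii, were not called, with log2 fold changes of -0.07 and -0.14.

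Supervillin (Svil), a large membrane-associated member with a headpiece that is abundant in muscle, was at 65.2, 55.7, 63.2 and 48.4 CPM in AD1 OE. In Control it was at 51.8, 51.7, 51.5 and 51.4 CPM. In AD1 OE, 3 of the 4 libraries lay above all Control libraries, and replicate 4 lay below them. Svil stood at 113% of Control with an interval of 100.1% to 127% but did not pass the test, with a log2 fold change of 0.17 ± 0.08 and an adjusted p of 0.262 (edgeR). Without AD1 OE replicate 4 the log2 fold change was 0.26 with an adjusted p of 0.0232, still short of the threshold, and without AD1 OE replicate 1 it was 0.11. The 4 Control libraries were closer together (SD 0.172 CPM) than counting error alone would place them (1.36 CPM), while the AD1 OE libraries (SD 7.68 CPM) were wider apart than their counting error (1.42 CPM). The 8 skeletal muscle genes summed to 149, 186, 516 and 107 CPM in AD1 OE replicates 1 to 4 and to between 129 and 356 CPM in Control. AD1 OE replicate 4 was thus lowest for both Svil and muscle genes, while replicate 1 was highest for Svil without being high for muscle genes, and the part of muscle in the Svil value was not tested.

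Capg, which caps filaments and does not sever them, was at 18.47, 19.8, 18.1 and 16.5 CPM in AD1 OE. In Control it was at 24.6, 15.9, 18.9 and 18.6 CPM, and replicate 1 stood above all other libraries. Capg stood at 93.8% of Control with an interval of 79.1% to 111% (edgeR adjusted p = 0.729). Capg is strong in macrophages, and the sum of 7 macrophage genes was also highest in Control replicate 1, at 99.5 CPM, against 91.5 to 95.9 CPM in the other Control libraries and 81.5 to 95.1 CPM in AD1 OE. Control replicate 2, the lowest in Capg, had the second-highest macrophage sum of the Control libraries, and the part of macrophages in the Capg value was not tested. Without Control replicate 1 the log2 fold change of Capg was 0.04 in place of -0.09.

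Villin (Vil1) was barely detected, with counts of 13, 4, 6 and 3 in AD1 OE and of 5, 15, 5 and 13 in Control. Vil1 shares 49 bases of exon with Usp37 on the opposite strand (log2 fold change 0.10). The counts correspond to 0.202 ± 0.0788 CPM and 0.314 ± 0.127 CPM, and the groups overlapped (exact permutation test, two-sided, p = 0.20). Scin, the adseverin of secretory cells, had counts of 0, 3, 7 and 5 in AD1 OE and of 3, 3, 2 and 5 in Control (exact permutation test, two-sided, p = 0.60). Only 3 of the 8 libraries held more than 3 Scin counts, so a fall or a small change in Scin was not detectable at this depth. The highest Scin count was 7, while Avil had at least 10091 counts in every library.

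**Figure D2:**
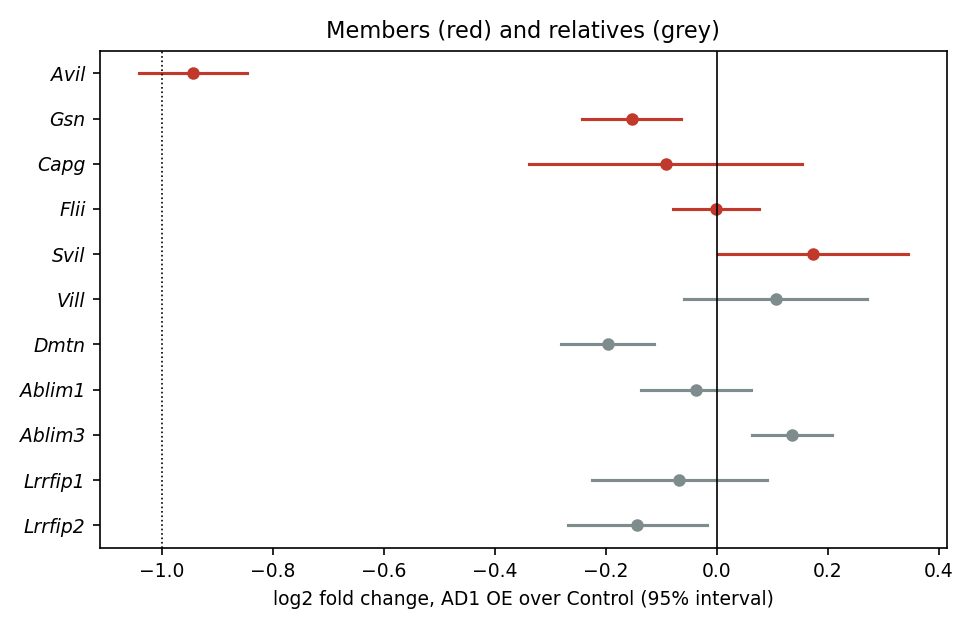
Fitted log2 fold change of AD1 OE over Control with its 95% interval for the 5 tested members (red) and for 6 relatives and partners (grey). The solid line marks no difference and the dotted line marks -1, or 50% of Control. The Avil interval crosses the dotted line, and the upper ends of the Gsn, Capg, Flii and Svil intervals lie at 95.7%, 111%, 105.4% and 127% of Control.

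Members were also compared on a scale per length, as CPM per kilobase of annotated exon, which sets levels of different genes roughly side by side. The length joined the exons of all annotated transcripts, 15 for Svil and 11 for Capg against 4 for Avil. Which transcripts were expressed was not tested, so levels of genes with many transcripts may be too low. The sums, shares and limits on this scale carry the same uncertainty. In Control, Avil was at 262 ± 10.3, Gsn at 80.4 ± 2.60, Flii at 31.7 ± 0.834, Capg at 7.71 ± 1.45 and Svil at 4.82 ± 0.0161 CPM per kb. Vil1 (0.0884 ± 0.0356 CPM per kb) and Scin (0.0374 ± 0.0103 CPM per kb) followed far below. The order was the same in both groups. Ranges over libraries did not overlap between neighbours in this order, except for Vil1 and Scin in AD1 OE. Avil was 3.26 times as high as Gsn in Control and 1.89 times as high in AD1 OE.

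The paralogues together were at 117 ± 4.32 CPM per kb in AD1 OE and at 125 ± 3.31 CPM per kb in Control. The difference in their sum was -8.08 CPM per kb, beside a fall of 126 CPM per kb in Avil. Gsn, at 72.3 ± 3.06 CPM per kb in AD1 OE, made up -8.12 CPM per kb of it, and the differences of the other 5 paralogues nearly cancelled. The sum over the family was at 253 ± 6.01 CPM per kb in AD1 OE, 65.4% of the 387 ± 8.45 CPM per kb in Control. Avil made up 67.8% ± 1.34 of the family sum in Control and 53.9% ± 1.02 in AD1 OE.

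The intervals bound how far the tested paralogues could have risen. At the upper 95% limit, Flii would have risen by 1.73, Svil by 1.30 and Capg by 0.869 CPM per kb, while the upper limit for Gsn lay below Control. These 3 limits sum to 3.90 CPM per kb, or 3.09% of the difference in Avil. A rise of transcript from the tested paralogues to the size of the Avil difference was outside these limits, and protein levels were not measured.

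**Figure D3:**
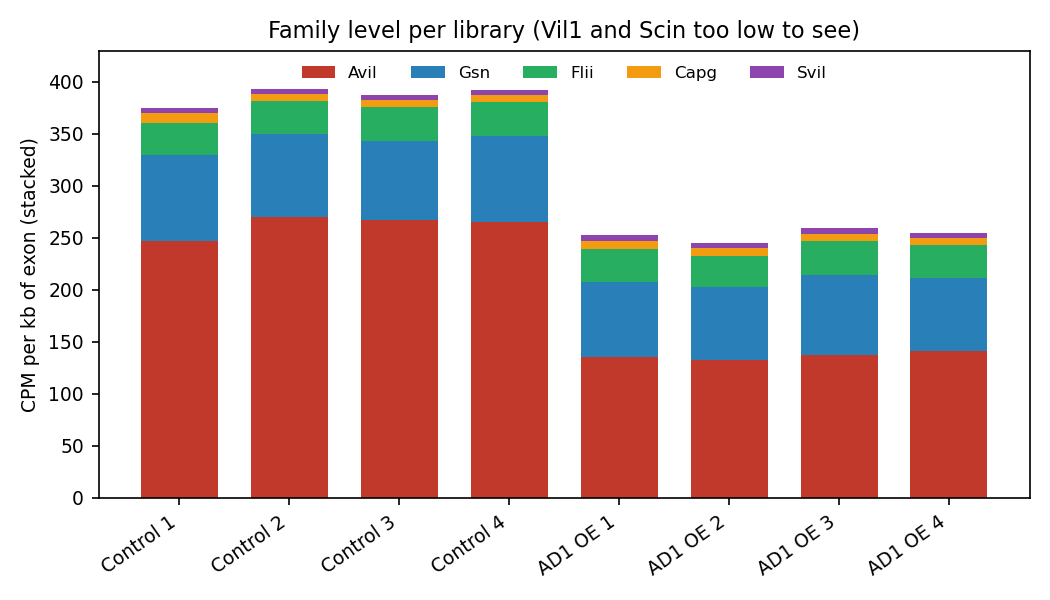
Stacked CPM per kb of exon in each library for 5 members (Vil1 and Scin are too low to be seen). The Control stacks reach 375 to 393 and the AD1 OE stacks 245 to 260, and the step lies in the Avil part.

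Avil was also set against its paralogues as ratios within a library, which do not depend on library scaling. The log2 ratio of Avil to Gsn was 1.02 ± 0.0629 in AD1 OE and 1.81 ± 0.0923 in Control. For Flii the ratio was 1.54 ± 0.0391 and 2.48 ± 0.0385, for Capg 4.67 ± 0.146 and 5.53 ± 0.318, and for Svil 3.01 ± 0.216 and 4.11 ± 0.0603. All 4 ratios were lower in every AD1 OE library than in every Control library (exact permutation test, two-sided, p = 0.0286 for each, adjusted over 4 ratios p = 0.0286, the smallest that 4 against 4 libraries can give). The 4 ratios share Avil, whose groups lay far apart by themselves. These p-values therefore add nothing beyond the difference in Avil.

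Avil was lower in AD1 OE within each sex. The female AD1 OE library was at 467 CPM against a mean of 889 CPM in 3 female Control libraries, a log2 difference of -0.93, and the 3 male AD1 OE libraries averaged 463 CPM against 902 CPM in the male Control library, a log2 difference of -0.96. For Gsn the same differences were -0.06 in females and -0.22 in males. For Svil they were 0.29 in females and 0.13 in males. With 1 library on 1 side, no test within a sex was made.

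Beyond the members, 4 relatives were examined that carry a villin headpiece or gelsolin domains. Vill (villin-like) had a log2 fold change of 0.11 and Ablim1 of -0.04, both with overlapping groups and not called. Dmtn (dematin), which bundles actin at the membrane, was at 170.3 ± 7.88 CPM in AD1 OE against 195 ± 4.47 CPM in Control without overlap (log2 fold change -0.20 ± 0.04, edgeR adjusted p = 0.00829). Ablim3, an actin-binding LIM protein, was at 153 ± 3.78 CPM and 139 ± 3.71 CPM without overlap (log2 fold change 0.14 ± 0.03, edgeR adjusted p = 0.0295). Neither was called, since both fold changes were under 0.25 and both adjusted p over 0.005, and DESeq2 also called 0 of the 4 relatives (2 had an unadjusted p under 0.05 with edgeR and 2 with DESeq2). Over all tested genes, 18.6% had such a p with edgeR, and 13.0% had non-overlapping groups.

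The wider actin machinery was taken from a list of 62 regulators, all of which were tested. The edgeR test called 0 of the 62, against 2.57% of all tested genes in either direction. At an unadjusted p under 0.05, 4 were higher and 14 were lower, where 8.28% and 10.3% of all tested genes were. DESeq2 called 1, Arpc1b. The median log2 fold change was -0.02, with a range from -0.27 to 0.22. By role, the median was -0.03 over 23 genes of filament nucleation and elongation, -0.05 over 11 of filament disassembly, -0.06 over 6 that bind actin monomers, 0.01 over 10 that cap filament ends and -0.04 over 7 that bundle filaments. Nucleation and elongation, 23 of the 62 regulators, held 9 of the 18 genes with an unadjusted p under 0.05 and 7 of the 12 with non-overlapping groups. Over all tested genes, 18.6% had such a p and 13.0% had non-overlapping groups. Enah (0.07) was in both counts of this role and was higher in AD1 OE, and the others were lower.

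The lowest adjusted p-values belonged to some subunits of the Arp2/3 complex, which nucleates branched filaments, and to Limk1, the kinase that inactivates cofilin. Arpc4 was at 106 ± 1.97 CPM in AD1 OE against 119 ± 2.42 CPM in Control (log2 fold change -0.16, edgeR adjusted p = 0.00824). Arpc1b was at 160 ± 4.69 CPM and 193 ± 21.6 CPM (-0.27, adjusted p = 0.0284), and Arpc5 at 165 ± 4.53 CPM and 178 ± 3.98 CPM (-0.11, adjusted p = 0.0821). Limk1 was at 125 ± 4.63 CPM and 141 ± 6.83 CPM (-0.17, adjusted p = 0.0336). The edgeR test called none of the 4, and DESeq2 called Arpc1b (log2 fold change -0.27, adjusted p = 0.00254). The groups of each of the 4 did not overlap. The other listed Arp2/3 subunits had overlapping groups. Their log2 fold changes were -0.13 (Arpc3), -0.09 (Arpc1a), -0.02 (Arpc2), -0.002 (Actr3) and 0.005 (Actr2). Non-overlap held for 12 of the 62 regulators, against 13.0% of all tested genes. Among the cytoplasmic actins, the substrate of the family, Actb was at 1164 ± 58.8 CPM in AD1 OE against 1189 ± 25.3 CPM in Control (log2 fold change -0.03, 95% interval -0.14 to 0.08). Actg1 had only 6.11 ± 0.581 CPM against 6.15 ± 0.543 CPM. It has near-identical copies in the genome that could share its reads, so its level is uncertain. These actins are named after their values were seen.

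**Figure D4:**
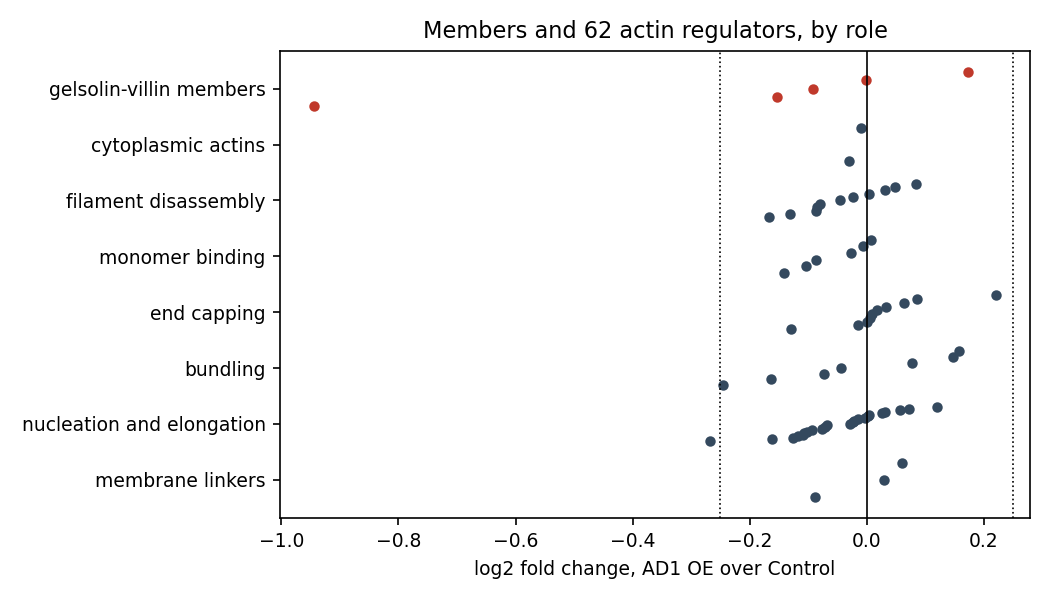
Log2 fold change of AD1 OE over Control for the 5 tested members (red) and for 62 actin regulators (dark), each point a gene, grouped by role; dotted lines mark the fold limit of 0.25 in either direction. Apart from Avil at -0.94, 1 gene (Arpc1b at -0.27) lies beyond the limit.

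Around the Avil locus on chromosome 10, the 5 protein-coding genes on each side were all tested. The edgeR test called 0 of the 10, and so did DESeq2. With edgeR, 18.6% of all tested genes had an unadjusted p under 0.05, and 1 gene of the 10 did in each tool. That gene was Slc16a7, a monocarboxylate transporter, at 89.8 ± 6.68 CPM in AD1 OE against 76.2 ± 4.85 CPM in Control (log2 fold change 0.24 ± 0.06, edgeR adjusted p = 0.0330). The direct neighbours Ctdsp2 and Tsfm had log2 fold changes of -0.06 and -0.09. Fam19a2, Lrig3, Atp23, Eef1akmt3, Mettl1, Cyp27b1 and March9 ran from -0.13 to 0.17, and Eef1akmt3 and Cyp27b1 averaged under 1 CPM in both groups. Groups did not overlap for 3 of the 10 neighbours, Slc16a7, Atp23 and Tsfm, and for 13.0% of all tested genes.

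**Figure D5:**
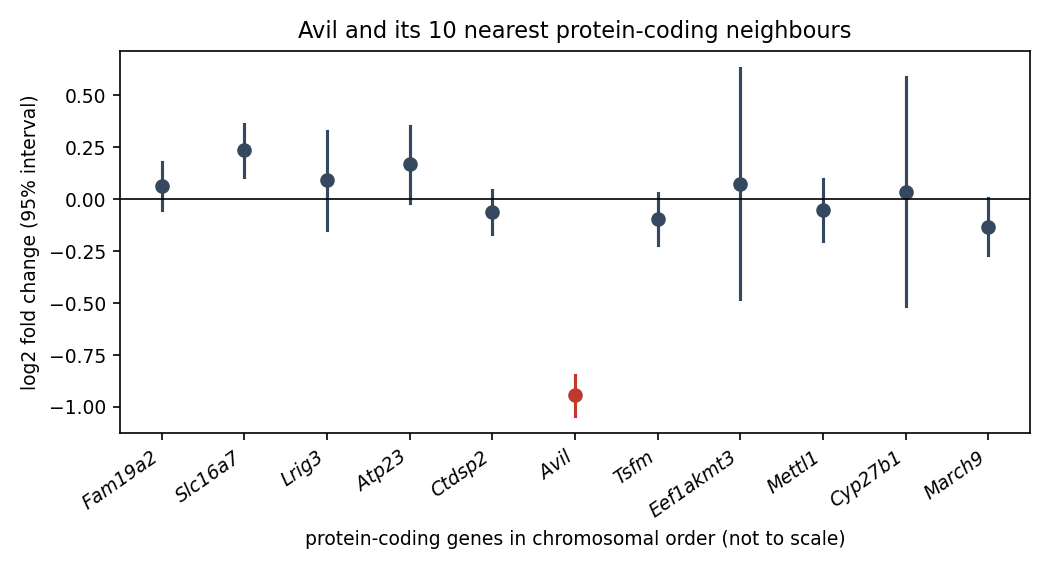
Log2 fold change of AD1 OE over Control with its 95% interval for Avil (red) and the 5 nearest protein-coding genes on each side, in chromosomal order and not to scale. Avil stands at -0.94, and the 10 neighbours lie between -0.13 and 0.24.

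Genes were ranked by how closely their profile over the 8 libraries followed that of Avil, as the root mean square difference of log2 CPM after centring each gene. Among 15517 genes averaging 1 CPM or more, the closest were Kcna4 (0.0565), which encodes a potassium channel, Abcc8 (0.0742), a subunit of ATP-sensitive potassium channels, Scn10a (0.0762), which encodes Nav1.8, Myt1 (0.0785), a zinc finger transcription factor, and Cdh18 (0.0969), a cadherin. Kcna4 was at 11.3 ± 0.463 CPM in AD1 OE against 21.5 ± 0.427 CPM in Control (log2 fold change -0.92). The measure favours genes with a group difference of the same size, and the log2 fold changes of the other 4 ran from -0.95 to -0.83. The paralogue closest to Avil was Gsn, at a difference of 0.40 and rank 1262. Svil was the farthest, at 0.57 and rank 13622.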

How the data were processed

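DRG were dissected from E18.5 embryos, and poly(A) libraries were made with a stranded Illumina kit. The authors aligned reads to GRCm39 with STAR 2.7.8a and counted them per gene with featureCounts 2.0.1. The strand setting of the counting is not given in the sources used here. The deposited values are raw counts, 1 file per library, neither normalized nor pooled. The study gives 4 embryos per group, as many as libraries. The labels do not tie each library to an embryo. All replicate pairs differed by more than counting noise (chi-square per degree of freedom of at least 4.37).

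Symbols, exon lengths, exon sharing and gene order came from GENCODE M21 (GRCm38, while the counts are on GRCm39), and 52133 of 55414 IDs matched. Promoter windows came from RefSeq. Counts were tested in R 4.3.3 with edgeR 4.0.16 (filterByExpr, TMM, quasi-likelihood F test, genotype as the only term), with p-values adjusted by the Benjamini-Hochberg method across every gene that passed the filter. A call needed a log2 fold change beyond 0.25 in either direction and an adjusted p below 0.005, the limits the study set for this comparison. Intervals are 95% intervals of the fitted coefficient. CPM are on TMM-scaled library sizes. Log2 CPM for profile likeness used a prior count of 2. Reads carried no molecular identifiers, so counting errors cover counting only. Alternatives were DESeq2 1.42.0 (the study's tool), RLE scaling, no filter, sex, the replicate number as a block, scaling to sensory neuron genes, a looser threshold and leaving out each library. The edgeR test was checked on simulated counts, in which all genes had the same dispersion and the groups did not differ in sex, unlike in these data.

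Members and lists were chosen with earlier results of these data known. A further relative was left out of the lists and is not reported here. Named genes are the members, their relatives and partners, called actin regulators or otherwise the 4 with the lowest adjusted p, 5 protein-coding neighbours on each side of Avil, genes sharing exons with a member, the 5 genes closest to Avil in profile, and Dach1.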

Additional observations from a re-analysis of the deposited data

How the results depend on the processing

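The log2 fold change of Avil kept its direction and its call in all 15 alternatives, between -0.97 and -0.90, and between -0.97 and -0.93 in the fits without 1 library. No alternative at the same threshold called a paralogue. With an adjusted p under 0.05 and no fold limit, 2 members passed (Avil and Gsn, both lower), as did 3 actin regulators, all lower, and 1 neighbour of Avil, which was higher. DESeq2 and the fit with no expression filter each called 1 actin regulator, Arpc1b. In the fits without 1 library, 1 member, 0 actin regulators and 0 neighbours were called, 4 ratios of Avil to paralogues were lower, and the summed paralogue CPM differed by -25.8 to -14.2 CPM. Scaled to sensory neuron genes, that difference was -7.24 CPM in place of -20.7 CPM. The log2 fold change of Flii changed sign under RLE scaling (5.20e-05), with no expression filter (0.00291), when scaled to sensory neuron genes (0.0404) and in 3 fits without 1 library (range over all 8 such fits -0.0145 to 0.0267), and that of Capg changed sign without Control replicate 1 (0.0369, range -0.181 to 0.0369). The cause was not tested. Whether replicate numbers pair the libraries was not settled by correlations of deviations from the group means. These ran from -0.05 to 0.31 between same-numbered libraries and from -0.32 to 0.22 between the others. Of the 8 libraries, 2 were closest to their own number, AD1 OE replicate 4 and Control replicate 4. The fit with the replicate number as a block gave 348 calls in place of 455, with Avil at -0.94. Vil1 and Scin did not pass the expression filter and entered the fit across genes only without it.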
